A study of Phragmites australis with 7 samples.

Results

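Vascular parenchyma cells are the living, thin-walled cells that surround the conducting strands of a plant. They move sugars, phosphate and other solutes between the conducting cells and the tissue around them. Here they were taken from single-cell RNA profiles of common reed (Phragmites australis) by a marker score. The score of a cell was the sum, over 9 genes that the study lists as vascular parenchyma markers, of the natural logarithm of 1 plus the unique molecular identifiers (UMIs, each counting one captured RNA molecule) of the gene per 10000 UMIs of the cell. The 400 cells with the highest score in each library were taken as members, which gave 2400 cells of the 54987 that had at least 500 genes and 2000 UMIs.

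Untreated plants were grown in a common garden under natural conditions. The temperature of 25 °C that the labels give is, in the study's methods, that of the room where plants stood before the cells were isolated. There were 3 libraries of the invasive population of North America (NAint61, NAint113, NAint191) and 3 of the European (EU) source population (EU60, EU78, EU620), each from 1 plant. The labels give shoot as the tissue, although the text on cell isolation says rhizome tip, and cells were freed of their walls by enzymes before capture. NAint113, EU60 and EU78 carry the label of batch 1, NAint191 and EU620 that of batch 2, and NAint61 alone that of batch 3. A spatial section of NAint61, in which RNA was assigned to segmented cells, has no replicate. The matrices held between 95335255 and 132478792 UMIs per library, and 14 to 52 cell barcodes were shared by each of the 15 pairs of libraries.

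The 9 score genes are named by their feature and by the best Arabidopsis hit in the study's marker table, so their roles are known from Arabidopsis and not from reed. Transport is represented by PaChr25.434 (ATPT2, a phosphate transporter) and PaChr16.621 (ATSTP4, a sugar symporter of the plasma membrane). PaChr1.2471 (BG14) belongs to the beta-1,3-glucanases, some of which degrade callose, and PaChr5.1974 (AtUGT85A2) is a glycosyltransferase. PaChr6.1817 (DOF5.6, a Dof transcription factor of vascular tissue) and PaChr6.2115 (ERF109, a stress-responsive AP2/ERF factor) are regulators, and PaChr4.1152 (ArathEULS3) is a lectin. PaChr6.342 and PaChr6.1790 carry no symbol in that table. The study found these markers on the same samples. It also lists BG14, DOF5.6 and ERF109 for bundle sheath cells, and BG14, ATPT2 and PaChr6.342 for other vascular clusters.

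The members are the upper end of a continuous score and not a separate cloud of cells. The score of the last cell taken and of the first cell left out was 20.584 and 20.573 in NAint61, 26.259 and 26.257 in NAint113, and 15.760 and 15.759 in NAint191. It was 23.627 and 23.608 in EU60, 25.5412 and 25.5410 in EU78, and 16.032 and 16.029 in EU620. Between 14 and 32 members and between 10 and 35 other cells of a library lay within 0.1 of that limit. Because a fixed number of cells was taken, members made up 6.6%, 3.2% and 4.0% of the kept cells in NAint61, NAint113 and NAint191, against 4.0%, 3.7% and 7.0% in EU60, EU78 and EU620.

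**Figure D1:**
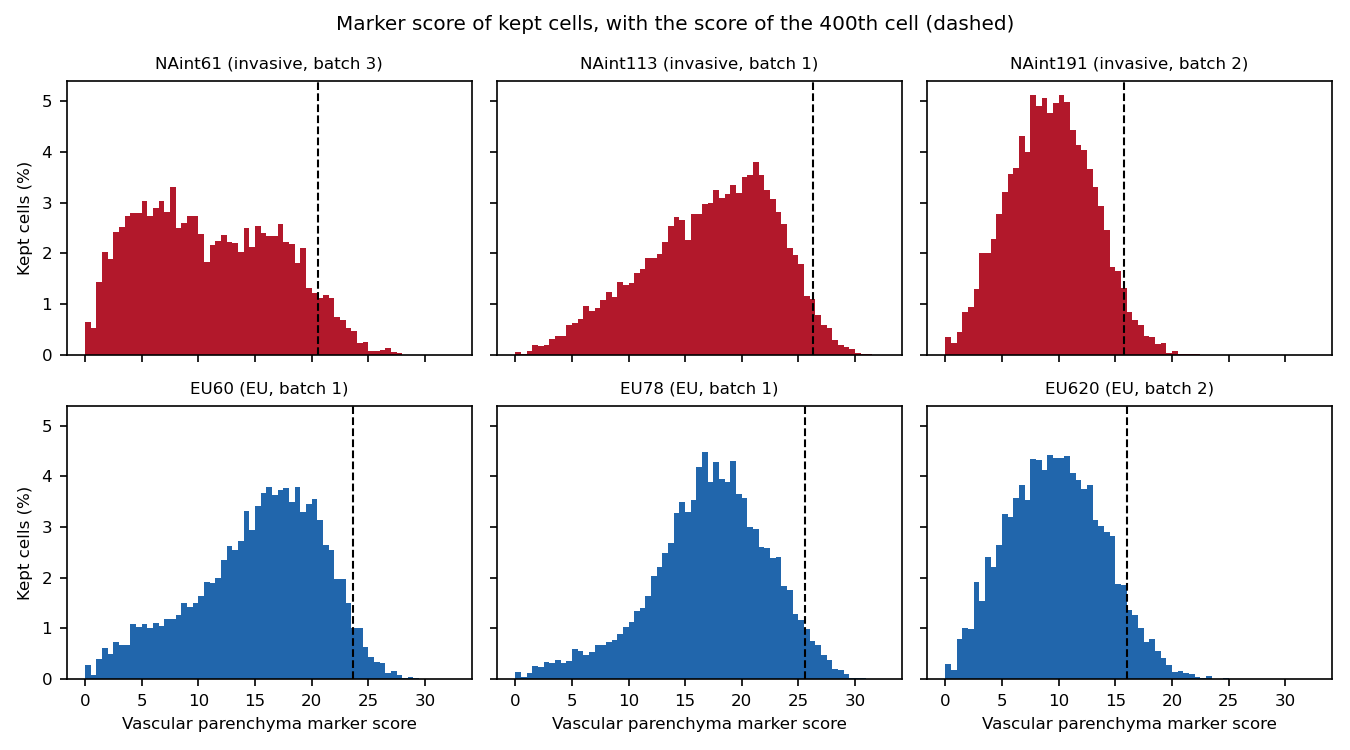
Marker score (x axis, no unit) against the share of kept cells (y axis, percent) for each library, with invasive libraries in red above and EU libraries in blue below; the dashed line marks the score of the last member. The line stands between 23.627 and 26.259 in batch 1, at 20.584 in batch 3 and at 15.760 and 16.032 in batch 2, and no gap in the bars separates members from other cells.

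The level of the score followed the batch label rather than the population. The limit was 23.627 or above in the 3 libraries of batch 1, whether invasive or EU, and 16.032 or below in both libraries of batch 2. At 1 common score, the median of the 6 limits, 3.2%, 22% and 0.010% of the kept cells of NAint61, NAint113 and NAint191 qualified, against 9.3%, 17% and 0.10% of those of EU60, EU78 and EU620. The mean was 8.3% ± 12 in invasive and 8.7% ± 8.3 in EU libraries (SD, n = 3 each), a difference within the spread between libraries (two-sided exact permutation test, p = 0.9; the smallest p that 3 against 3 libraries allow is 0.1). Within batch 1 the invasive library was 8.86 percentage points above the mean of the EU libraries, and within batch 2 the difference, invasive minus EU, was -0.094 points. The levels below, for 400 cells per library, therefore rest on cells of unequal score between batches.

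Other kept cells also carried the score genes. The summed level of the 9 genes, in UMIs per 1000000 UMIs of the pooled cells (CPM), was 14297 in members and 5317 in other cells of NAint61, 24227 and 10127 in NAint113, and 8578 and 3338 in NAint191. It was 19299 in members and 8929 in other cells of EU60, 22428 and 9850 in EU78, and 10107 and 3638 in EU620. Members thus had 2.2 to 2.8 times the level of other cells, a contrast that the choice of members fixes and that was not tested. The median member had 8 or 9 of the 9 genes detected and the median other cell 6 to 8.

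Among the transport genes, PaChr16.621 (ATSTP4) reached 2870, 4495 and 2266 CPM in members of NAint61, NAint113 and NAint191, and 2597, 3590 and 2829 CPM in those of EU60, EU78 and EU620. PaChr25.434 (ATPT2) stood at 2543, 2923 and 1598 CPM in the invasive members and at 2476, 3127 and 1787 CPM in the EU members. Both were the least uneven of the score genes between libraries, and invasive and EU levels overlapped.

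PaChr6.1817 (DOF5.6) varied most. It had 305, 798 and 65.1 CPM in the invasive members and 554, 1157 and 37.1 CPM in the EU members, with the lowest values in batch 2. PaChr1.2471 (BG14) had 2119, 3460 and 721 CPM in the invasive members and 4700.1, 4218 and 1039 CPM in the EU members. PaChr6.2115 (ERF109) had 777, 1022 and 206 CPM in the invasive members and 1155, 963 and 225 CPM in the EU members. All 3 genes, which are those that the study also lists for bundle sheath cells, were lowest in both libraries of batch 2. The same held for PaChr25.434, PaChr4.1152, PaChr6.342 and PaChr6.1790, so it was not particular to these 3. It did not hold for PaChr16.621 and PaChr5.1974.

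The lectin gene PaChr4.1152 had 2065, 5142 and 1233 CPM in the invasive members and 3683, 4233 and 1889 CPM in the EU members. PaChr5.1974 (AtUGT85A2) had 1105, 2091 and 1276 CPM in the invasive members and 1548, 2330.2 and 1180.5 CPM in the EU members. Among the genes without a symbol, PaChr6.342 had 1466, 2144 and 509 CPM in the invasive and 1261, 1384 and 798 CPM in the EU members. PaChr6.1790 had 1046, 2151 and 704 CPM in the invasive and 1326, 1427 and 322 CPM in the EU members. For each of these 4 genes the ranges of the populations overlapped.

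**Figure D2:**
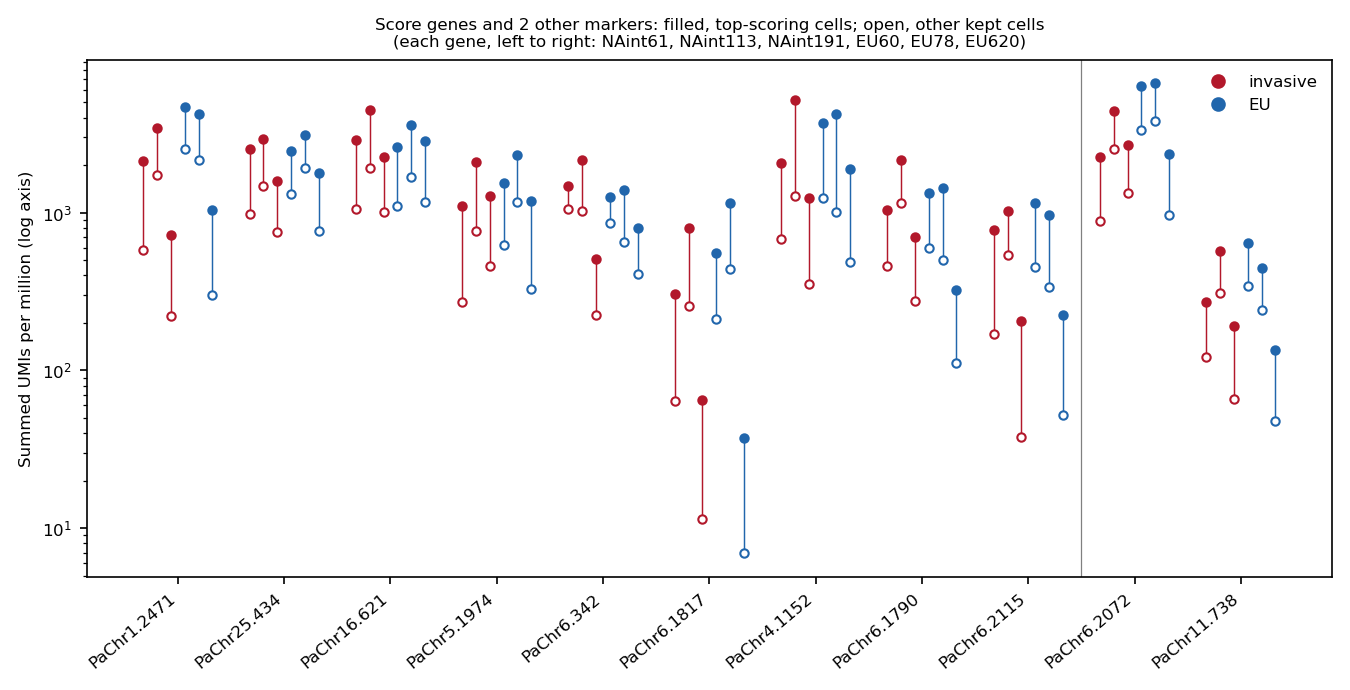
Summed UMIs per 1000000 (y axis, log scale) of the 9 score genes and, right of the grey line, the 2 other vascular parenchyma markers (x axis), with filled points for the top-scoring cells and open points for other kept cells, invasive libraries in red left of EU libraries in blue. Every filled point lies above its open point, and PaChr6.1817 spans 37.1 to 1157 CPM among the members.

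The 9 genes varied together only weakly from cell to cell. After each kept cell was thinned to 2000 UMIs, the median Spearman correlation over the 6 libraries was between 0.0263 and 0.325 for the 36 pairs of score genes, all counted in the same sparse cells. The pair with the highest value was PaChr1.2471 and PaChr25.434.

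Free RNA in droplets can give UMIs in cells that do not express a gene, so the score genes were also read in the 400 other cells of each library with the highest level of 2 lists of epidermal markers. PaChr6.1817 was detected in 28.5% to 98.2% of members and in 1.5% to 37.2% of these epidermal cells. PaChr16.621 was detected in 99.8% to 100% of members and in 76.0% to 90.8% of the epidermal cells. Median depth was 7121 to 15947 UMIs in members and 9996 to 26350 UMIs in the epidermal cells. The members were chosen for these genes, so the direction of this comparison was fixed, and it was not tested. How much of these levels is free RNA was not tested.

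Markers outside the score were read next. The study lists 2 further vascular parenchyma markers, PaChr6.2072, another AtUGT85A2 hit, and PaChr11.738. It found them on these same samples for the same cluster as the score genes, so they are not an independent check of the label. PaChr6.2072 had 2244, 4431 and 2664 CPM in invasive members, against 890, 2532 and 1325 CPM in the other cells of the same libraries. It had 6352, 6592 and 2349 CPM in EU members, against 3321, 3827 and 968 CPM in the other cells. PaChr5.1974 has the same best hit, and whether they share reads was not tested. PaChr11.738 was 1.85 to 2.92 times as high in members as in other cells. Over the cell type lists, this pair had the highest mean log2 ratio of members to other cells.

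Vascular lists came next, and epidermal lists stood at the other end. The markers of differentiating vasculature, summed, were 1.3 to 1.7 times as high in members as in other cells, and those of vascular tissue 1.1 to 1.6 times, above 1 in all 6 libraries. Markers of bundle sheath cells were 2.0, 0.88 and 1.7 times as high in members of NAint61, NAint113 and NAint191, and 1.1, 0.89 and 1.7 times in those of EU60, EU78 and EU620, so that they were below 1 in 2 libraries of batch 1. One phloem list was at 0.89 to 1.2 times, the other at 0.62 to 0.86 times, and xylem at 0.44 to 0.83 times. The epidermal lists were at 0.035 to 0.43 and at 0.048 to 0.18 of their level in other cells.

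When each cell was given the cell type list on which it stood highest above the mean of its library, differentiating vasculature led in 563 of the 2400 members, vascular tissue in 512, bundle sheath cells in 349, a parenchyma list in 238 and a phloem list in 222. Differentiating vasculature led in 16% to 31% of the members of a library and in 4.7% to 8.1% of other cells. Vascular tissue led in 10.75% to 27.25% against 5.5% to 9.1%, and bundle sheath cells in 5.75% to 20.75% against 3.5% to 7.3%. The parenchyma list led in 7.25% to 12.75% against 5.4% to 6.8%. For the phloem list it was 6.5% to 13.75% against 4.8% to 9.3%, with members above other cells in only 4 of the 6 libraries. The 2 epidermal lists led in 25 and 7 members, at most 2.75% and 1% of those of a library, against at least 6.0% and 3.6% of other cells. No list of vascular parenchyma markers was among those compared, so no member could lead on such a list. The counts give the leading list among the others and cannot say whether a member was vascular parenchyma. Xylem and the other phloem list, summed, were lower in members than in other cells in all 6 libraries. The 400 cells per library are called members or top-scoring cells below, by the rule that chose them.

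**Figure D3:**
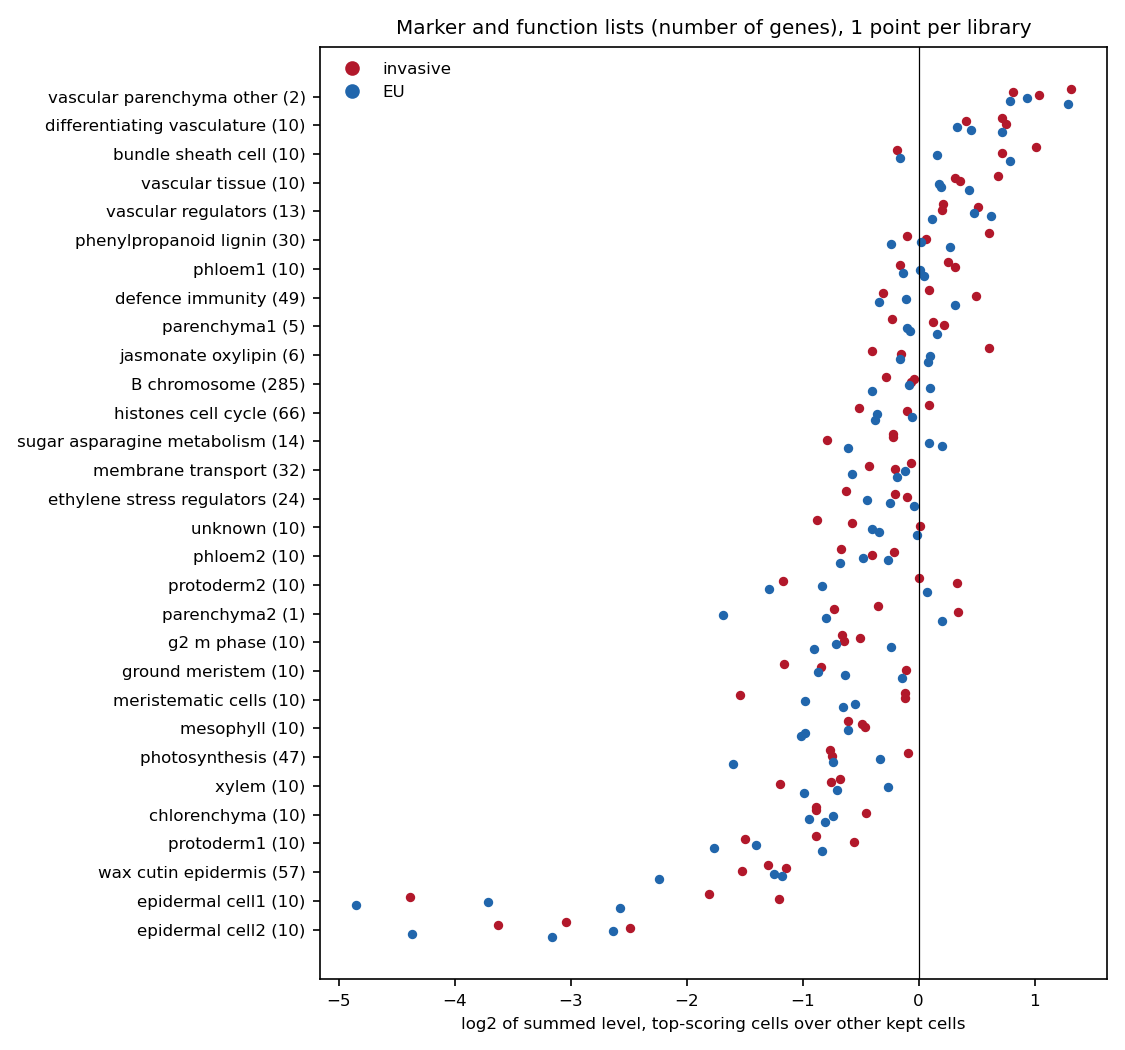
Log2 of the summed level in top-scoring cells over that in other kept cells (x axis) for each marker and function list, with the number of genes in parentheses (y axis) and 1 point per library, invasive in red and EU in blue. The score genes, which chose the cells, are not drawn. The 2 other vascular parenchyma markers, summed, lie right of 0 and the 2 epidermal lists left of 0, in all 6 libraries.

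Of 24851 genes with at least 10 UMIs in the members of any library, 249 (1.00%) were over 1.5-fold higher in members than in other cells in all 6 libraries and 833 (3.35%) were over 1.5-fold lower. The members were chosen by expression of the same cells, so these counts and the genes below describe the members and were not tested.

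Outside the score, among genes with a symbol and at least 50 CPM in the members of every library, PaChr7.233 (AIL5) had the highest smallest ratio of members to other cells, and PaChr6.2072, described above, came next. PaChr7.233 (AIL5, an AINTEGUMENTA-like factor of growing tissue) had 285, 469 and 71.3 CPM in invasive members, against 89.8, 234 and 13 CPM in other cells. It had 998, 1477 and 69.9 CPM in EU members, against 423, 658 and 17 CPM in other cells. It was thus 2.01 to 5.52 times as high in members, and it was lowest in batch 2, as DOF5.6 was. PaChr1.2993 (SOK5, of the SOSEKI family of polarly placed proteins) had 1219, 1760.0 and 695 CPM in invasive and 1514, 782 and 641 CPM in EU members, 1.6 to 2.2 times the level of other cells. PaChr3.515 (ATHB-5, a homeodomain-leucine zipper factor) was 1.3 to 2.0 times and PaChr10.1034 (ERF114, an AP2/ERF factor) 1.5 to 2.1 times as high.

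The other genes named by this order have varied roles. PaChr12.1700 (ATWRKY28) and PaChr1.1641 (ATWRKY71), both WRKY factors, were 1.4 to 2.3 and 1.3 to 2.5 times as high in members. PaChr13.786 (CRK10, a cysteine-rich receptor-like kinase) was 1.4 to 2.3 times and PaChr23.66 (ATPSK3, a precursor of the phytosulfokine peptide) 1.4 to 3.9 times as high. PaChr13.1640 (ATL44, a RING-type protein), PaChr4.2103 (BGLC3) and PaChr7.255 (RD21, a cysteine protease) were 1.5 to 2.6, 1.5 to 2.2 and 1.4 to 4.0 times as high. Without a symbol, PaChr9.1304 and PaChr9.1008 were at 1.9 to 2.9 and 1.9 to 3.4 times.

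The genes lowest in members were mostly epidermal markers. PaChr10.1229 (LTP3, a lipid transfer protein) had 18, 3.3 and 151 CPM in invasive members, against 303, 236 and 1197 CPM in other cells. It had 67.2, 0.879 and 183 CPM in EU members, against 441, 64.9 and 1666 CPM in other cells. PaChr11.1103 (MLP423), PaChr11.1614 (CASPL2A1), PaChr2.238 (PLDBETA, a phospholipase D) and PaChr1.860 were at most 0.18, 0.29, 0.31 and 0.32 of their level in other cells. PaChr5.607 (ATNLM2, an aquaporin-like channel) was at most 0.23 of it. Without a symbol, PaChr21.457 and PaChr16.588 were at most 0.29 and 0.32 of it. All of these but PaChr5.607 are in the protoderm or epidermal marker lists.

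The function lists are read beside the 1.00% of all genes that were over 1.5-fold higher and the 3.35% that were over 1.5-fold lower in members. Genes of these lists that are named here have symbols from the study's marker tables, made on these same samples. A count above those shares can therefore follow from how the lists were chosen. The summed level of 13 vascular regulators was 1.1 to 1.5 times that of other cells, and 2 of them were over 1.5-fold higher in all 6 libraries, AIL5 and SOK5. Of 57 genes of wax, cutin and epidermis, 56 passed the filter on low counts and 41 were over 1.5-fold lower. Of 47 photosynthesis genes, 22 were over 1.5-fold lower, and their sum was 0.33 to 0.94 of that of other cells. Of 66 histone and cell cycle genes 10 were over 1.5-fold lower, and of 32 transport genes 1 was higher and 5 were lower. Of 49 defence genes 0 were higher and 1 was lower by that measure, and their sum was 0.79 to 1.4 times that of other cells.

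The phenylpropanoid genes, whose enzymes lead to lignin, were divided. Of 30 such genes 29 passed the filter, of which 5 were over 1.5-fold lower in members in all 6 libraries and 0 were higher by that measure, against 3.35% and 1.00% of all genes. PaChr9.592 (ATC4H, cinnamate 4-hydroxylase) was 1.3 to 2.5 times and PaChr5.903, another ATC4H hit, 1.1 to 2.6 times as high in members. PaChr6.1460 (ATPAL1, phenylalanine ammonia-lyase, the entry enzyme) was at 1.1 to 1.6 times and PaChr6.375 (4CL2) at 0.97 to 2.2 times. In the jasmonate list, PaChr3.1622 (AOC3) and PaChr3.2442 (AOS), enzymes of jasmonate synthesis, were at 0.83 to 1.9 and 0.92 to 2.1 times, so neither had the same direction in all libraries.

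Between populations, no gene was called in the members by the main test. At an adjusted p under 0.05 (Benjamini-Hochberg) and an absolute log2 fold change over 1, edgeR's quasi-likelihood test on the sums over 400 cells called 0 of 24851 genes (0.00%), with 1980 genes (7.97%) at an unadjusted p under 0.05. On simulated data the edgeR test recovered few of the changed genes, so 0 calls do not show that no gene differed. DESeq2, the tool that the study used on sums per cluster, called 261 genes (1.05%) on the same sums, 175 higher and 86 lower in invasive plants. The 9 score genes chose the cells within each library, so their fold changes between populations are given as a description, with no test. Their log2 fold changes, invasive over EU, ranged from -0.88 for PaChr1.2471 to 0.06 for PaChr6.1790, with a median of -0.37. Of the 2 markers outside the score, PaChr6.2072 had a log2 fold change of -0.97 and an adjusted p of 0.60 in edgeR, and PaChr11.738 one of -0.53 and an adjusted p of 0.79.

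The difference between members and other cells was then compared between the populations. In 1 edgeR model over the members and the other cells of each library, with the library as a block, 0 of 33402 genes (0.00%) were called for a ratio of members to other cells that differed between invasive and EU plants. In this model 1069 genes had an unadjusted p under 0.05, and DESeq2 was not run. Without NAint113 6 genes were called, but on simulated data this model called more unchanged genes than its nominal rate.

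The larger axis among the members followed the batch label. Members of batch 2 also had the highest summed level of ground meristem markers, 13705 CPM in NAint191 and 15352 CPM in EU620. Such differences cannot be told apart from the batch label. The first principal component of the 6 sums held 49.4% of the variance and placed NAint113 at 92.9, EU60 at 66.1 and EU78 at 100.4 of batch 1, NAint61 of batch 3 at -24.0, and NAint191 at -130.3 and EU620 at -105.1 of batch 2. The second component held 16%, with -55.8, -66.5 and -26.8 for NAint61, NAint113 and NAint191 and 19.7, 66.4 and 63.0 for EU60, EU78 and EU620, so that the populations did not overlap on it.

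**Figure D4:**
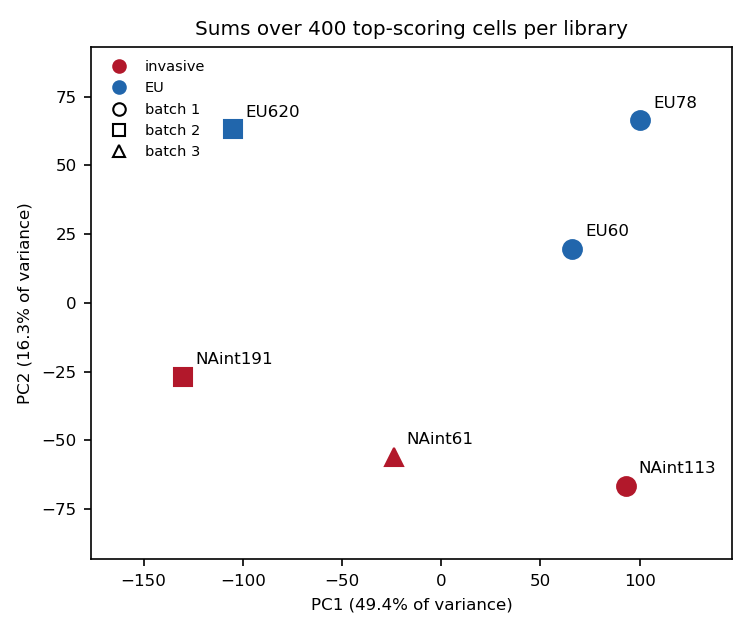
First (x axis) and second (y axis) principal component of log2 CPM summed over the 400 top-scoring cells, in units of the component score, with invasive libraries in red, EU libraries in blue and the shape giving the batch. Libraries of batch 2 lie left, at -130.3 and -105.1, and those of batch 1 right, and invasive libraries lie below EU libraries.

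Among the genes of the function lists, PaChr1.478 (AtNPF2.13, of the nitrate and peptide transporter family) had 663, 615 and 648 CPM in members of NAint61, NAint113 and NAint191, against 2190.0, 1875 and 1434 CPM in those of EU60, EU78 and EU620. The groups did not overlap, and the log2 fold change was -1.58 ± 0.35 (SE), with an adjusted p of 0.48 in edgeR and 0.0027 in DESeq2. PaChr17.267 (ABCG40, an abscisic acid transporter) had 982, 1059 and 1433 CPM in the invasive members, against 458, 247 and 897 CPM in the EU members. These did not overlap either, with a log2 fold change of 1.55 ± 0.50 (SE) and an adjusted p of 0.59 in edgeR and 0.13 in DESeq2. In other kept cells PaChr17.267 had 886, 876 and 947 CPM in invasive and 539, 289 and 618 CPM in EU libraries, also without overlap. PaChr1.478 had 406, 1071 and 451 CPM there in invasive and 1979, 2625 and 768 CPM in EU libraries, which overlap. Both genes were picked with their values known, and the share of all genes without overlap is not given.

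Of the 47 photosynthesis genes, 29 had an unadjusted p under 0.05 in edgeR and all 29 were higher in invasive members, with a median log2 fold change over the 47 of 2.34, against 0.07 over all genes tested, of which 5.33% were higher at such a p. Some lists of other tissues also had high medians in the same fit, but not all are separate sets of genes. Most of the mesophyll markers are also photosynthesis genes, and the epidermal lists share genes with the wax, cutin and epidermis list. The median log2 fold change was 2.06 over 10 mesophyll markers, 7 of them higher at an unadjusted p under 0.05, and 2.00 and 2.1 over the 2 epidermal lists, with 5 and 2 of 10 higher. It was 1.39 over 56 wax, cutin and epidermis genes, 18 of them higher, and 1.17 over 66 histone and cell cycle genes, 19 of them higher. The part of such cells in the result was not tested. Without the depth covariate the mesophyll and the 2 epidermal medians were 0.98, 1.45 and 0.69, the wax median 0.75 and the histone median 1.08. With batch in its place they were 0.17, 0.19, 0.19, 0.28 and 0.40. In that fit 0, 0, 0, 7 and 8 genes of these lists were higher at such a p, and 1 wax gene was lower. For photosynthesis the median was 0.93 without the depth covariate, where 0 of the 47 had such a p, and 0.14 with batch in its place, where 3 did. Their summed level was 3398, 1659 and 5097 CPM in members of NAint61, NAint113 and NAint191, against 1835, 1083 and 3920 CPM in those of EU60, EU78 and EU620. These levels overlap (two-sided exact permutation test of the log2 level, p = 0.5, and 0.86 after Benjamini-Hochberg adjustment over 31 lists).

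The summed level of B chromosome genes was the only one of the 31 to reach the smallest p that the design allows. B chromosomes are supernumerary chromosomes that a plant may carry or lack, and features named PaChr24 are those that the study places on the B chromosome. They took 0.0615%, 0.0579% and 0.0448% of the UMIs of members of NAint61, NAint113 and NAint191, from 4748, 1929 and 2051 UMIs. In members of EU60, EU78 and EU620 they took 0.0106%, 0.0053% and 0.0058%, from 580.0, 301 and 408 UMIs. The means were 0.055% ± 0.0088 in invasive and 0.0072% ± 0.0029 in EU members (SD, n = 3 each), without overlap (two-sided exact permutation test, p = 0.1). The log2 level was 2.98 higher in invasive members, 2.95 within batch 1 and 2.96 within batch 2. Adjusted over the 31 lists the p was 0.86.

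Much of this came from few genes, chosen here after their values were seen. PaChr24.43, which the study annotates as an importin gene but regards as a likely pseudogene with a truncated product, had 991, 646 and 748 UMIs in members of NAint61, NAint113 and NAint191, against 4, 1 and 0 UMIs in those of EU60, EU78 and EU620. PaChr24.240, annotated as the cohesin subunit gene SCC3, had 778, 244 and 289 UMIs in the invasive members, against 1, 1 and 0 UMIs in the EU members. Both missed the threshold in edgeR, with an adjusted p of 0.067 each, and both passed it in DESeq2 (6.5e-22 for PaChr24.43 and 3.2e-12 for PaChr24.240). Homologs elsewhere in the genome could share reads with them, which was not tested.

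Not every B gene followed. PaChr24.101 had 63.7, 30.6 and 20 CPM in invasive members, against 39.2, 18 and 10 CPM in EU members, which overlap. PaChr24.260 had 6.1, 2.4 and 0 CPM in invasive members, against 6.2, 13 and 9.1 CPM in EU members. Of 285 B features, 48 passed the filter, 36 of them only through invasive libraries, so a count of B genes by direction is not given.

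Other kept cells showed the same separation. Those of the invasive libraries gave 0.0746%, 0.0594% and 0.0468% of their UMIs to B features, and those of the EU libraries 0.0112%, 0.0049% and 0.0077%. PaChr24.43 stood at 128, 194 and 164 CPM in members and at 161, 198 and 160.2 CPM in other cells of NAint61, NAint113 and NAint191.

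**Figure D5:**
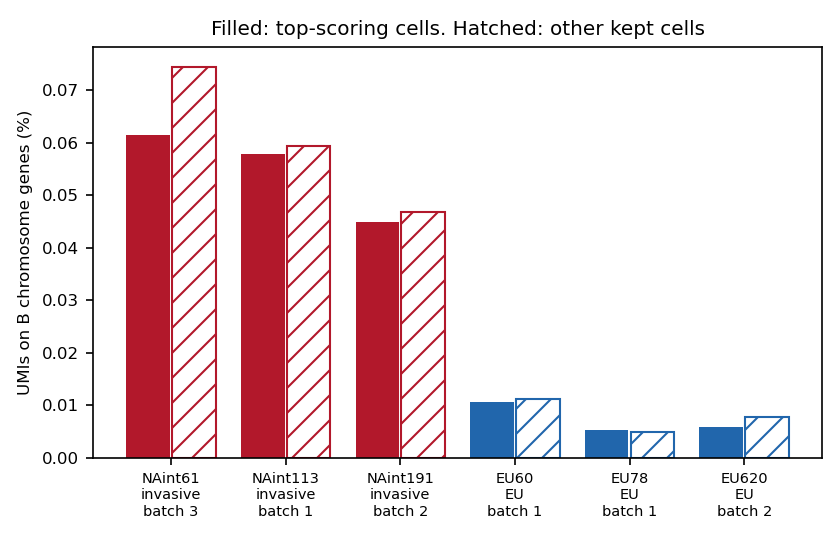
Share of UMIs on B chromosome features (y axis, percent, from 0) in the top-scoring cells (filled bars) and in other kept cells (hatched bars) of each library (x axis), invasive in red left of EU in blue. Invasive libraries stand at 0.0448% or above and EU libraries at 0.0112% or below in both kinds of cells.

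The median member had 15112, 7121 and 9520 UMIs in NAint61, NAint113 and NAint191, against 11232, 10796 and 15947 UMIs in EU60, EU78 and EU620 (two-sided exact permutation test, p = 0.5). Pooled levels overlapped, but the difference, invasive minus EU, was -3893 UMIs within batch 1 and -6426 UMIs within batch 2, so invasive members were shallower in both batches that hold both populations. Each of these batches holds a single invasive library. Other kept cells differed the same way, by -2412 UMIs within batch 1 and -4251 UMIs within batch 2, so this was not particular to members. Thinned to 2000 UMIs, the median member had 1196, 1174 and 1212 genes in the invasive and 1186, 1172 and 1188 genes in the EU libraries (p = 0.4 by the same exact test). The differences within batch were -5.5 and 24.5 genes.

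In the spatial section of NAint61 the same score picked out cells by very few counts. Of 78619 segmented cells, 30929 had at least 500 counts, and 78.7% of the cells outside the 400 highest-scoring ones had no count of any score gene. The 400 cells had a median of 2 of the 9 genes detected and a median of 1065 counts, against 873 counts in the rest. The score genes summed to 2141 CPM in the 400 cells and to 241 CPM in the rest, which the choice of cells fixes. PaChr6.2115 (ERF109) had 1 count in all kept cells of the section.

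Markers that the score did not use were not raised in these cells of the section. PaChr6.2072 had 1 count in the 400 cells (2.2 CPM), against 9.69 CPM in the rest, and PaChr11.738 had 2 counts (4.4 CPM), against 5.41 CPM. Of the 14 genes named above as higher in members of the single-cell libraries, PaChr6.2072 among them, 4 were above 1 and 10 below 1 as a ratio in the section, with a median of 0.804. Many of these ratios rest on few counts in the 400 cells, from 0 for PaChr1.2993 and PaChr10.1034 to 66 for PaChr7.255. The markers of differentiating vasculature were at 1.03 times, those of bundle sheath cells at 1.1 times and those of vascular tissue at 0.92 times the level of the rest. Of the 400 cells, 28.2% had another of them among their 10 nearest cells, against 11% of the rest, with no test since there was 1 section. The label of vascular parenchyma was therefore not borne out in the section by markers that the score did not use, but counts of single genes were too few to decide on it.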

How the data were processed

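The authors deposited raw counts of UMIs per gene and cell for the single-cell libraries, made with Cell Ranger 8.0 (Scanpy is also named) per the labels, and raw counts per gene in segmented cells for the section. Members and lists were chosen with earlier results of these data known, and the marker lists come from these samples. Feature names lack the subgenome letter, and 2 names that the study prints with a doubled letter were read as having a single one. Named genes were the 11 markers, the genes with symbols ranked by their least favourable library (12 higher, 6 lower, with 2 more each way without a symbol), the most abundant 4 of each function list, and any called; not all are described.

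Cells were filtered, scored and summed in Python 3.11.15 and tested in edgeR 4.0.16 (TMM, quasi-likelihood, the study's mean reads per cell as covariate) under R 4.3.3, with DESeq2 1.42.0 as an alternative. Fits were tested on simulated data, where the test between populations recovered few of the changed genes. Standard errors are the log2 fold change over the square root of F, which is approximate. Ratios of members to other cells of single genes added 0.5 UMIs. Scrublet's own threshold marked 1 of 54987 kept cells as a doublet and so had not worked; doublets were kept, and removing the 8% of highest score was an alternative. Cells were not treated as replicates, and p-values measure the spread between libraries. Each library is from 1 plant and the main test had no batch term, so this spread also holds differences of preparation and batch. Alternatives changed normalization, filter, covariate, member number, score and libraries. Sums over members held 3328932 to 7726387 UMIs.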

Additional observations from a re-analysis of the deposited data

How the results depend on the processing

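The count of genes called between invasive and EU members, 0 in edgeR, became 261 in DESeq2, 5 with no low count filter, 1 with 200 cells and 1 with 800 cells per library. It was 0 in the other alternatives, leaving out each library included (0 to 0), apart from the replicate number as a block, where it was 1. Same-numbered libraries correlated in their deviations by 0.083, 0.45 and 0.62, and the second and the third pair also share a batch, so the numbers were not taken to pair the plants. The count of ratios called between populations was 0 to 6 when libraries were left out. The difference in the share above the common score, invasive minus EU, was 0.13 points at the highest limit and -7.1 to 3.8 points when libraries were left out, and thus changed sign. That in the share of B features was 0.044 to 0.052 points when libraries were left out. Leaving out libraries was added after seeing the data for depth, where the differences were -4338 to -342 UMIs, -892 to -43.7 genes and 3.2 to 22 genes after thinning.

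The log2 fold changes of named genes, none of them called in edgeR, changed sign with batch as a term for PaChr25.434 (0.0015), PaChr16.621 (0.22), PaChr5.1974 (0.14), PaChr6.1817 (0.32), PaChr4.1152 (0.0029), PaChr11.738 (0.30), PaChr10.1034 (0.22), PaChr12.1700 (0.30), PaChr23.66 (0.14), PaChr7.255 (0.72), PaChr9.1008 (0.36), PaChr10.1229 (-1.70), PaChr1.860 (-0.62), PaChr16.588 (-1.0), PaChr9.592 (0.11), PaChr4.710 (0.38), PaChr4.264 (-0.22), HiC-scaffold-1055.1 (-0.12), PaChr3.1111 (-0.80), PaChr14.95 (-0.34), PaChr1.2612 (0.38), PaChr15.251 (0.20), PaChr8.1477 (0.55), PaChr5.1291 (0.019), PaChr8.135 (0.17) and PaChr3.1472 (0.039). A change of sign also came with no covariate for PaChr16.621 (0.083), PaChr7.255 (0.31), PaChr10.1229 (-0.54), PaChr1.860 (-0.076), PaChr3.1111 (-0.031), PaChr16.111 (-0.26), PaChr8.1477 (0.088) and PaChr8.135 (0.019). The same was seen with the replicate block for PaChr16.621 (0.032), PaChr7.255 (0.21), PaChr10.1229 (-0.45), PaChr3.1111 (-0.16), PaChr8.1477 (0.059) and PaChr8.135 (0.067). Changing the members gave it with 200 cells for PaChr6.1790 (-0.030), with 800 cells for PaChr3.515 (0.060) and PaChr20.989 (-0.025), with 4% of cells for PaChr3.515 (0.0028), with the 11 markers in the score for PaChr20.989 (-0.028), with doublets removed for PaChr3.515 (0.0089) and PaChr20.989 (-0.0091). When libraries were left out, values changed sign within these ranges: PaChr16.621 (-0.30 to 0.20), PaChr6.342 (-0.29 to 0.45), PaChr6.1790 (-0.16 to 0.32), PaChr7.255 (-0.91 to 0.55), PaChr3.515 (-0.41 to 0.30), PaChr1.2993 (-0.20 to 0.51), PaChr12.1085 (-0.12 to 0.62), PaChr6.2115 (-1.14 to 0.044), PaChr10.1229 (-2.23 to 4.81), PaChr1.860 (-0.093 to 1.8), PaChr16.588 (-2.00 to 5.32), PaChr3.1111 (-0.21 to 0.87), PaChr20.989 (-0.20 to 0.27), PaChr8.1477 (-0.59 to 0.019), PaChr8.135 (-0.77 to 0.32), PaChr3.1472 (-0.62 to 0.045), PaChr12.1708 (-0.62 to 0.30). PaChr1.478 was called in DESeq2 (-1.59). The mean log2 ratio of members to other cells of PaChr16.621 was 1.12 with the thinned score. The cause of these changes was not tested. In the section, the 2 markers outside the score rest on 1 and 2 counts.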
